A study of Mus musculus with 48 samples.

Results

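Cerebellar RNA of 2 lines of transgenic mice was compared at the age when each first showed rotarod deficits, per the authors' series design. Both lines carried exon 1 of huntingtin (Htt) with 142 glutamines. In line S25 a nuclear localization signal was joined to the fragment, and in line A39 a nuclear exclusion signal. The comparison set the effect of the transgene in S25 at 3 months, transgenic minus nontransgenic, against the same effect in A39 at 4 months, and was restricted to autosomal genes. It used 14 of the 48 arrays of the series as contrasts, with 1 mouse per array on Affymetrix MG-U74Av2 arrays.

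The S25 arm held 3 transgenic and 3 control mice, and the A39 arm held 4 transgenic and 4 control mice. The 3 S25 transgenic mice were males of 3 months. Among the S25 controls, 1 was a male of 3 months and 2 were females of 2.5 months. The A39 mice were all 4 months old, with 2 females and 2 males among the transgenic mice and 3 females and 1 male among the controls. Controls were nontransgenic littermates, per the series design. The strain and the promoter that drove the transgene were not given in the sources used here. Each signal was represented by 1 line in this comparison, so the effect of the signal and that of the line, with its insertion site and transgene dose, cannot be told apart. Age at sampling, scan day and line also moved together, and the comparison rests on each line's own controls. In S25, 2 of the 3 controls differed from the transgenic mice in sex and age. The S25 effect, and so the difference between lines, cannot be fully told apart from sex and age. Sex was taken as a term in an alternative fit, and age in none.

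Huntingtin is a large protein with a glutamine run near its start. Expansion of that run causes Huntington's disease, in which fragments of the protein gather in nuclei and in the cytoplasm and processes of neurons. A nuclear localization signal is a short peptide that importins carry into the nucleus, and a nuclear export or exclusion signal is one that exportin carries out. The cerebellar cortex holds inhibitory Purkinje cells, its only output neurons, above a dense layer of excitatory granule cells. Purkinje cells depend on calcium release from the endoplasmic reticulum through inositol trisphosphate receptors, on calcium buffers such as calbindin, and on glutamate uptake at their synapses.

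Before any result, 3 arrays have to be named. A39 control 4 had a mean correlation of 0.913 with the other arrays of its line, against 0.936 to 0.953 for the other 7 A39 arrays and 0.925 to 0.941 for the S25 arrays. It was labelled female and had an Xist signal of 2884, but its signals for the Y-linked genes Eif2s3y (91.4) and Uty (91.7) lay above those of the other A39 control females (at most 24 and 18). Other females came closer, with Eif2s3y at 64.4 in S25 control 1 and Uty at 59.3 in A39 transgenic 2. Kdm5d, also Y-linked, had a signal of 58.7 in A39 control 4, below the 102.4 of the female S25 control 1. A39 control 2 was scanned on another day and on another chip lot than the other 7 A39 arrays, and its animal number was also given to an S46 control of 10 months that was scanned with the A39 arrays of 4 months. These 2 arrays may have been exchanged, in which case the array labelled A39 control 2 would come from an S46 control of 10 months, and this was not settled. A39 transgenic 4 had an actin 3'-to-5' signal ratio of 1.80, against 1.08 to 1.48 on the other 13 arrays, and its part in the results was not tested beyond leaving it out. Counts below are therefore also given without each of these arrays. Xist followed the labelled sex on all 14 arrays. The same ratio for Gapdh, likewise a measure of RNA quality, was 0.878 to 1.09 over the 14 arrays.

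Signals are given as scaled signal, the deposited intensity on a linear scale after each array was set to one trimmed mean. Effects are log2 differences, and a gene was called where the adjusted p of limma's moderated test (Benjamini and Hochberg, over all 7453 probe sets tested) was below 0.05. Of these probe sets, 6516 stood for 5472 autosomal genes with 1 symbol. With 1 probe set each, 1.54% of these genes were called higher in S25 and 2.27% lower. In A39 the shares were 0.457% and 1.11%, and for the S25 effect minus the A39 effect 0.0548% and 0.201%. These shares are the background for the counts of list members below. Since whole cerebellum was measured, fewer cells of a type and less RNA per cell cannot be told apart in any value below.

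Purkinje cell genes such as Calb1, Rgs8 and Homer3 fell in both lines and fell further in S25. The microglial genes C1qa and Cd68 rose in S25, and their effects were higher there than in A39. Nr4a1, Nab2, Kcnma1, Marcks and B2m changed in the same direction in both lines with no called difference. More probe sets were called in S25 than in A39, a comparison of counts that was not tested. In S25, 238 autosomal probe sets were called (95 higher and 143 lower), 3.65% of those tested. In A39, 99 were called (27 higher and 72 lower), 1.52% of those tested. The difference between the 2 effects was called for 15 probe sets, 0.23%, of which 4 were higher and 11 lower in S25 relative to A39, and 436 had an unadjusted p below 0.05. The median standard error was 0.19 for the S25 effect, 0.17 for the A39 effect and 0.25 for their difference.

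Genes called in both lines numbered 58, in 64 probe sets, with 11 higher and 53 lower in both. They made up 26.9% of the S25 calls and 64.6% of the A39 calls. No probe set was called in opposite directions, here or under any alternative setting. Of the 99 A39 calls, 95 had the same sign in S25, which is 96.0%. Of the 238 S25 calls, 213 had the same sign in A39, which is 89.5%, where 60.9% of all autosomal probe sets had the same sign in both lines. The lines shared no control arrays. Across the 6516 probe sets the 2 effects had a Pearson r of 0.38 and a Spearman rho of 0.31, as a description across genes, which are not independent.

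The shared falls were deeper in S25. Over the 53 shared falls, the median effect was -1.32 in S25 and -0.72 in A39. Over the 11 shared rises, it was 1.02 in S25 and 0.66 in A39. The effect was larger in S25 for 59 of the 64 shared probe sets and larger in A39 for 5, and the median over all autosomal genes was 0.02 in S25 and -0.0006 in A39. Since shared calls must pass the threshold in S25 as well, these medians and counts describe the called genes and carry no test. Of all 99 A39 calls, 59 had the same sign and a larger effect in S25. Over the 72 A39 falls, the median was -1.05 in S25 and -0.68 in A39. Over the 27 A39 rises, it was 0.58 in S25 and 0.65 in A39. The difference itself was called for 8 of the 64. Among the other 56, the 95% interval of the difference held 0 for 36 and lay wholly below 0 for 20, and it lay within 1 log2 unit of 0 on either side for 38 and within 0.5 for 10.

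**Figure D1:**
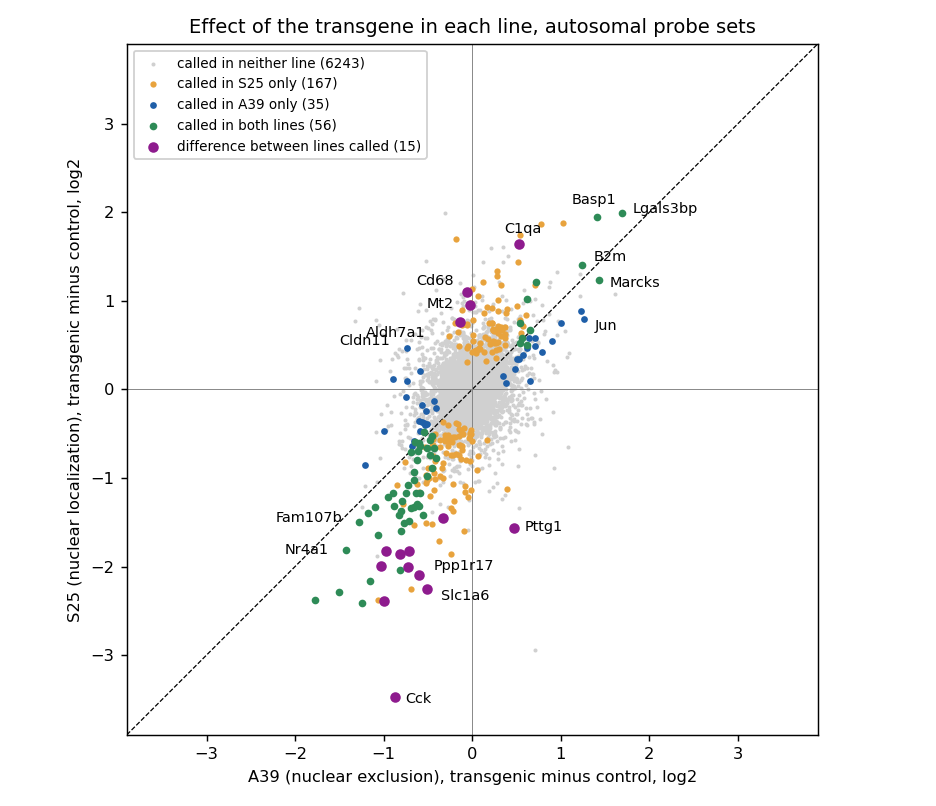
Effect of the transgene in S25 (vertical axis) against that in A39 (horizontal axis), log2 transgenic minus control, for 6516 autosomal probe sets. Points on the dashed line had equal effects in both lines. The 15 called differences (purple) lie away from the line on the S25 side, and the 56 shared calls without a called difference (green) lie mostly at lower left, with 167 probe sets called in S25 only (orange) and 35 in A39 only (blue).

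The promoter windows of 4 genes are shown because these genes stand for the 2 patterns described below. Nr4a1 and Nr4a2, nuclear receptors without a known ligand that neurons switch on with activity, fell in both lines. Slc1a6 and Rgs8, which Purkinje cells express, fell further in S25. The windows run from 250 bases before to 50 after the first listed start and come from RefSeq (GRCm38.p6), where 51 of the 71 named genes had one. Capitals mark TGACG or its reverse complement CGTCA, the half-site of the cyclic AMP response element, the sequence that the activity-regulated factor CREB binds. The full element TGACGTCA, which contains the half-site on both strands, and the nuclear receptor half-site AGGTCA (or TGACCT) were also searched on both strands.
Nr4a1 promoter, chr15:101266596-101266895, plus strand: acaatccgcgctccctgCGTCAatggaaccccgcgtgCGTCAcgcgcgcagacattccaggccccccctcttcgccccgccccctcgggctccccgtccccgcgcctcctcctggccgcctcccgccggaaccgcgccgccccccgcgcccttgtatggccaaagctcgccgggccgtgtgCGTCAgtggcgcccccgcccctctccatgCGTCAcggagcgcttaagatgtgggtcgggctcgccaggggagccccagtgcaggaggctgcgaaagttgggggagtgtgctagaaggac
Nr4a2 promoter, chr2:57123954-57124253, minus strand: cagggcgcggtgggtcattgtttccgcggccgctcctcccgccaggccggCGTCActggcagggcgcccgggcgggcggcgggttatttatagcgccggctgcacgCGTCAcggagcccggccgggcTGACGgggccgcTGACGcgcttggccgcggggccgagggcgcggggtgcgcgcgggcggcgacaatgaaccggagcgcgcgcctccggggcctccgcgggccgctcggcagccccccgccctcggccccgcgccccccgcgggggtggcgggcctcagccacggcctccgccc
Slc1a6 promoter, chr10:78780246-78780545, plus strand: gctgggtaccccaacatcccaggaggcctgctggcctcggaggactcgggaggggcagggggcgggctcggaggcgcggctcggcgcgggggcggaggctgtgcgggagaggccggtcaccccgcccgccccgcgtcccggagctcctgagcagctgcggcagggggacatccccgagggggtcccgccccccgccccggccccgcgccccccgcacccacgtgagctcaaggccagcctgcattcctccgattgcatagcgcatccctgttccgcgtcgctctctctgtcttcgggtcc
Rgs8 promoter, first of 3 listed, chr1:153652787-153653086, plus strand: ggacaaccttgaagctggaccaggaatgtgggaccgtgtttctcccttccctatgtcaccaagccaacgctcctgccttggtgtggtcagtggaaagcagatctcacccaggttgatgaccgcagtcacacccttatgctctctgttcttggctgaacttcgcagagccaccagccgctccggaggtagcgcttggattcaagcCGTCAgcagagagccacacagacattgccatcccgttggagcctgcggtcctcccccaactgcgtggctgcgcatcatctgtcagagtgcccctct
The half-site TGACG occurred 4 times in the Nr4a1 window, 4 times in the Nr4a2 window, 1 time in the Rgs8 window and not in the Slc1a6 window. At least 1 half-site was present in 21.0% of 27025 windows, the full element in 1.88%, and AGGTCA in 16.0%. Neither of the latter motifs was in these 4 windows.

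Fam107b fell in both lines. Its scaled signal was 2376, 2394 and 2409.9 in the S25 controls and 845, 844 and 811 in the S25 transgenic mice. In A39 it was 2344, 2076, 2382 and 2174 in controls and 913, 1001, 884 and 863 in transgenic mice. Every transgenic array lay below every control array in both lines. The effect was -1.50 (SE 0.11, adjusted p = 4.38e-13) in S25 and -1.28 (SE 0.10, adjusted p = 4.64e-12) in A39, and the difference was -0.22 (SE 0.15, 95% interval -0.52 to 0.07, adjusted p = 0.857).

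The immediate early genes Nr4a1 and Nr4a2 fell in both lines. Nr4a1 had signals of 902, 732 and 866 in S25 controls and 247, 299 and 148 in S25 transgenic mice. In A39 its signals were 466, 723, 388 and 770.3 in controls and 132, 314, 230.2 and 159.6 in transgenic mice, again without overlap. Its effect was -1.81 (SE 0.34, adjusted p = 0.000467) in S25 and -1.43 (SE 0.30, adjusted p = 0.00403) in A39, with a difference of -0.39 (SE 0.45, 95% interval -1.30 to 0.52, adjusted p = 0.97). Nr4a2 had 2 probe sets. The first had effects of -1.64 (SE 0.32, adjusted p = 0.00072) and -1.07 (SE 0.28, adjusted p = 0.0326) in S25 and A39, and the second was called in A39 only, with -1.21 (SE 0.28, adjusted p = 0.0138) against -0.86 (SE 0.32, adjusted p = 0.148) in S25. For the first, the A39 call passed in 8 of the 14 fits that left out 1 array and in 6 of 13 other alternatives. Nab2, a corepressor of the early growth response factors, fell alongside them: signals were 818, 944 and 912 in S25 controls, 398, 255 and 397 in S25 transgenic mice, 1220.0, 1094, 813 and 743 in A39 controls and 466, 446, 439.8 and 386 in A39 transgenic mice. The groups did not overlap in either line, the effects were -1.33 (SE 0.20, adjusted p = 1.0e-05) and -1.1 (SE 0.17, adjusted p = 8.47e-05), and the difference was -0.23 (SE 0.26, 95% interval -0.76 to 0.30, adjusted p = 0.969).

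The whole list of 14 tested immediate early genes did not fall as one. In S25, 3 fell and none rose, where 2.27% of the autosomal genes (1 probe set each) were called lower and 1.54% higher. In A39, 3 fell and 1 rose, where 1.11% of genes were called lower and 0.457% higher. No member's difference was called, where 0.201% of genes were called lower and 0.0548% higher in S25 relative to A39. The median was -0.18 in S25 and -0.29 in A39, against 0.02 and -0.0006 over all autosomal genes. Ier2, an early response gene, fell in S25 at -0.83 (SE 0.19, adjusted p = 0.00604) and had a value of -0.33 (SE 0.17, adjusted p = 0.427) in A39. Jun, a component of the AP-1 factor, rose in A39. Its signals there were 335, 297, 248 and 158 in controls and 657, 521, 613 and 729.6 in transgenic mice, an effect of 1.26 (SE 0.21, adjusted p = 0.000235). In S25 its signals were 492, 379 and 282 in controls and 823, 538 and 659.9 in transgenic mice, again without overlap, and its effect of 0.79 (SE 0.24, adjusted p = 0.0565) did not pass. The difference for Jun was -0.46 (SE 0.32, 95% interval -1.12 to 0.19, adjusted p = 0.882). Per1, a clock gene, fell in A39 with -0.75 (SE 0.17, adjusted p = 0.0101) and had a value of -0.08 (SE 0.19, adjusted p = 0.917) in S25. Fos, the classic activity marker, had wide errors and was not called, with -1.88 (SE 0.67) in S25 and -1.07 (SE 0.58) in A39.

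Col18a1, which encodes collagen XVIII of basement membranes, was the deepest of the shared falls by the smaller of its 2 effects, although the A39 call behind that rank was lost without any 1 of 6 arrays and with scan day or chip lot as a term. Its probe set with that rank had signals of 305, 428 and 274 in S25 controls and 43, 47 and 55.8 in S25 transgenic mice. In A39 the signals were 549, 336, 371 and 83.9 in controls and 64.8, 79.3, 60.7 and 72.2 in transgenic mice. Every transgenic array lay below every control array, though A39 control 4 was far below the other 3 controls. The effects were -2.38 (SE 0.51, adjusted p = 0.00248) and -1.77 (SE 0.44, adjusted p = 0.0232). A pair of further probe sets of the gene were called in both lines as well. The brightest probe set, with a mean signal of 1134 against 175 for the ranked one, was called in S25 only. Its A39 effect was -0.45 (SE 0.16, adjusted p = 0.217), with a difference of -1.06 (SE 0.25, 95% interval -1.57 to -0.55, adjusted p = 0.053).

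Other shared falls had no called difference, and for some the difference was near 0. Kcnma1, the calcium-activated BK potassium channel, had signals of 1361, 1336 and 1288 in S25 controls, 679, 877 and 871 in S25 transgenic mice, 1416, 1597, 1609 and 1786 in A39 controls and 966, 1036, 892 and 1029 in A39 transgenic mice. The groups did not overlap in either line, and the difference between its effects of -0.71 and -0.69 was -0.02 (SE 0.15, 95% interval -0.31 to 0.28, adjusted p = 0.998). Gad1, which makes the transmitter GABA, fell to 65.7% of control in S25 and 65.8% in A39, with a difference of -0.00 (SE 0.21, 95% interval -0.44 to 0.43, adjusted p = 0.998). Gabbr1, a GABA-B receptor subunit, had effects of -0.67 (SE 0.14, adjusted p = 0.00147) and -0.43 (SE 0.12, adjusted p = 0.0487), the only gene called among 13 tested glutamate and GABA receptors. Its A39 call was lost without any 1 of 10 arrays, and with scan day or chip lot as a term. The Gabbr1 difference was -0.23 (SE 0.18, 95% interval -0.60 to 0.13, adjusted p = 0.917). Among all autosomal genes, 2.27% were called lower in S25 and 1.11% in A39. Abcc8, the sulfonylurea receptor of ATP-sensitive potassium channels, had effects of -0.64 (SE 0.15, adjusted p = 0.00594) in S25 and -0.59 (SE 0.13, adjusted p = 0.00628) in A39. Penk, the enkephalin precursor that also falls in the striatum in Huntington's disease, had effects of -0.60 (SE 0.18, adjusted p = 0.0471) and -0.65 (SE 0.15, adjusted p = 0.016), while its second probe set was called in neither line. Mybpc3, known as a heart myosin-binding protein, fell to 38% of control in S25 and 44.2% in A39.

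The shared rises included membrane-linked proteins of axons. Marcks, a protein kinase C substrate that binds actin and membrane lipids, had signals of 836, 1039.6 and 863 in S25 controls and 2579.6, 1795 and 2202 in S25 transgenic mice. In A39 its signals were 574, 818, 755 and 563 in controls and 2135, 1611, 1745 and 1885 in transgenic mice. Transgenic and control arrays did not overlap in either line, and Marcks was 1 of the 5 shared probe sets with the larger effect in A39: 1.43 (SE 0.19, adjusted p = 8.12e-06) against 1.24 (SE 0.22, adjusted p = 0.000268) in S25, with a difference of -0.19 (SE 0.30, 95% interval -0.79 to 0.41, adjusted p = 0.976). Basp1, a related growth cone protein, had signals of 898, 629 and 549 in S25 controls, 2683, 2417 and 2942 in S25 transgenic mice, 693, 860.5, 581 and 556 in A39 controls and 2251, 1604, 1817 and 1546 in A39 transgenic mice. Its effects were 1.95 (SE 0.27, adjusted p = 2.44e-06) and 1.4 (SE 0.23, adjusted p = 0.000223), but its second, brighter probe set was called in neither line, with 0.42 and 0.22.

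Of the 19 tested genes for axon growth and actin-linked membrane proteins, 2 rose and 2 fell in S25, 2 rose in A39 and none had a called difference. Over all autosomal genes, 1.54% were called higher and 2.27% lower in S25, and 0.457% higher in A39. The list median was -0.01 in S25 and 0.08 in A39. The list takes the brighter Basp1 probe set, so its rises were Marcks and Tmsb10, an actin-binding thymosin with effects of 0.50 (SE 0.15, adjusted p = 0.0412) in S25 and 0.62 (SE 0.13, adjusted p = 0.00353) in A39. The falls in S25 were Nefm, a neurofilament subunit, with -1.72 (SE 0.33, adjusted p = 0.000565) against -0.37 (SE 0.28, adjusted p = 0.661) in A39, and Stmn2, a microtubule regulator of growth cones, with -0.45 (SE 0.11, adjusted p = 0.0142) against -0.15 (SE 0.10, adjusted p = 0.567).

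B2m, beta-2 microglobulin, which pairs with class I heavy chains, rose in both lines. Its signals were 1415, 1119 and 1053 in S25 controls, 3536, 3278 and 2772 in S25 transgenic mice, 968, 1056, 809 and 676 in A39 controls and 1913, 2101, 2265 and 2034 in A39 transgenic mice, without overlap in either line. The effects were 1.41 (SE 0.29, adjusted p = 0.00149) and 1.24 (SE 0.25, adjusted p = 0.00302), and the difference was 0.16 (SE 0.38, 95% interval -0.61 to 0.94, adjusted p = 0.983). It was the only one called of 7 tested genes of the interferon and MHC class I list, whose median was 0.36 in S25 and 0.23 in A39. Over all autosomal genes, 1.54% were called higher in S25 and 0.457% in A39. Lgals3bp, a secreted glycoprotein that binds galectin, had effects of 1.99 (SE 0.52, adjusted p = 0.0212) and 1.69 (SE 0.45, adjusted p = 0.0438) and its signals rose from 63.4, 203 and 55.7 to 385, 688 and 280.5 in S25 and from 46.7, 77, 63.6 and 51.1 to 264, 167, 203 and 313 in A39. Its A39 call was lost without any 1 of 7 arrays.

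Further shared rises were of moderate size. Kcnk2, a mechanosensitive potassium channel, rose to 2.32 times control in S25 and 1.64 times in A39, where control 4 overlapped with 1 transgenic mouse. Its A39 call passed in 8 of the 14 fits that left out 1 array and in 7 of 14 other alternatives. Slc39a6, a zinc transporter, rose 2.03-fold and 1.53-fold, with an A39 call that was lost without any 1 of 7 arrays, and Uchl1, a neuronal deubiquitinating enzyme, rose 1.69-fold and 1.46-fold. Alcam, an adhesion molecule, rose 1.59-fold and 1.58-fold, with a difference of 0.02 (SE 0.21, 95% interval -0.41 to 0.45, adjusted p = 0.998). Bmi1, a Polycomb protein, rose 1.49-fold and 1.48-fold, with a difference of 0.01 (SE 0.21, 95% interval -0.42 to 0.44, adjusted p = 0.998). In each line its call passed in 9 of the 14 fits that left out 1 array. Of 14 other alternatives, it passed in 10 in S25 and 13 in A39. Akr1a1, an aldehyde reductase, rose 1.44-fold and 1.45-fold, with a difference of -0.01 (SE 0.19, 95% interval -0.41 to 0.38, adjusted p = 0.998). Its S25 call passed in 8 of the 14 fits that left out 1 array and in 8 of 14 other alternatives. These last 3 genes had differences near 0 with intervals on both sides of it. Bmi1 was the only gene called among 16 tested histones and chromatin regulators. Over all autosomal genes, 1.54% were called higher in S25 and 0.457% in A39.

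**Figure D2:**
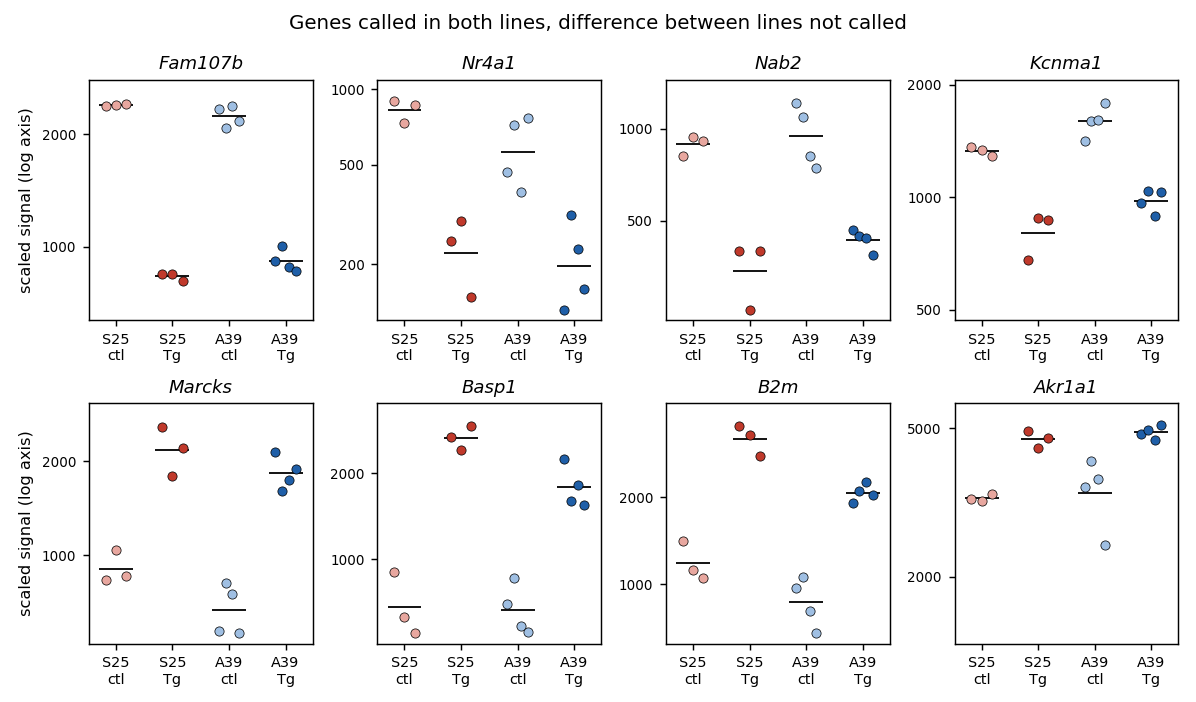
Scaled signal of each array (log axis) for 8 genes called in both lines whose difference between lines was not called, with controls (ctl) and transgenic mice (Tg) of S25 and A39 and the geometric mean of each group as a line. In all 8 genes the transgenic points lie on one side of the control points in both lines.

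Most tested genes that mark Purkinje cells fell in both lines, and most fell further in S25. Of 16 listed markers, 11 were tested on autosomes and the other 5 were not tested or not autosomal. All 11 fell in S25 and 9 fell in A39, and for 7 the difference was called. Across all autosomal genes, 2.27% were called lower in S25, 1.11% in A39 and 0.201% in the difference. The median effect was -1.86 in S25, -0.71 in A39 and -1.11 for the difference, against 0.01 for the difference over all autosomal genes. The effect was lower in S25 than in A39 for each of the 11. The summed signal of the 11 was 18295 to 19467 in S25 transgenic mice and 52027 to 55680 in S25 controls, 27107 to 32046 in A39 transgenic mice and 46699 to 48722 in A39 controls. The S25 transgenic arrays were the lowest, with no overlap between the 2 transgenic groups.

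Cck, the precursor of the neuropeptide cholecystokinin, had the largest of the 15 called differences in size. Its signals were 2164, 1586 and 1751 in S25 controls and 160.3, 107 and 182 in S25 transgenic mice. In A39 they were 631, 900.1, 1248 and 1102 in controls and 623, 591, 373 and 472 in transgenic mice. In both lines every transgenic array lay below every control array, by a wide gap in S25 and narrowly in A39, and the S25 controls lay above the A39 controls. Cck fell to 8.99% of control in S25 and 54.6% in A39, effects of -3.48 (SE 0.26, adjusted p = 5.31e-13) and -0.87 (SE 0.22, adjusted p = 0.0306). Its A39 call passed in 9 of the 14 fits that left out 1 array and in 9 of 14 other alternatives. The difference was -2.60 (SE 0.34, 95% interval -3.29 to -1.91, adjusted p = 5.83e-06), a 6.07-fold deeper fall in S25.

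Slc1a6, the glutamate transporter EAAT4 of Purkinje cells, fell in S25 from 2869, 3086 and 3466 in controls to 783, 463 and 726 in transgenic mice. In A39 its signals were 3150.2, 2926, 3026 and 2196 in controls and 2115, 2175, 1841 and 1714 in transgenic mice. The A39 arrays did not overlap either, although control 4 was close to the transgenic arrays. The effect was -2.25 (SE 0.17, adjusted p = 5.31e-13) in S25, and that of -0.52 (SE 0.14, adjusted p = 0.0592) in A39 did not pass. The difference was -1.74 (SE 0.22, 95% interval -2.19 to -1.29, adjusted p = 3.61e-06).

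Calb1, calbindin, buffers calcium in the Purkinje cell body and dendrites. Its signals were 6906, 6794 and 6506 in S25 controls, 2110.2, 1504 and 2126 in S25 transgenic mice, 6905, 7102, 6802 and 6765 in A39 controls and 4498, 4493, 3633 and 4249 in A39 transgenic mice. The control groups of both lines were alike in level, and the transgenic groups did not overlap with them or with each other. Calb1 fell to 28.3% of control in S25 and 61.1% in A39, with a difference of -1.11 (SE 0.14, 95% interval -1.4 to -0.82, adjusted p = 3.61e-06).

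Rgs8, a regulator of G protein signalling, had signals of 5408, 6079 and 5467 in S25 controls, 1466, 1328 and 1424 in S25 transgenic mice, 6452, 6372, 6104 and 4949 in A39 controls and 3190.0, 3067, 2788 and 2548 in A39 transgenic mice. It fell to 25.1% of control in S25 and 48.8% in A39, and the difference was -0.96 (SE 0.16, 95% interval -1.27 to -0.64, adjusted p = 0.0004). Ppp1r17, the substrate of cyclic GMP-dependent kinase in Purkinje cells, had signals of 4111, 3655 and 4200.2 in S25 controls, 999, 775 and 991 in S25 transgenic mice, 3507, 3435, 3247 and 2206 in A39 controls and 2057, 1979.6, 1749.5 and 2253 in A39 transgenic mice. In A39 control 4 overlapped with the transgenic mice, while S25 showed no overlap. The difference was -1.50 (SE 0.22, 95% interval -1.95 to -1.04, adjusted p = 7.79e-05). Its second probe set had a difference of -0.73 (SE 0.27, 95% interval -1.28 to -0.18, adjusted p = 0.463), which was not called.

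Car8, which binds the inositol trisphosphate receptor, had signals of 4499.8, 8681 and 6308 in S25 controls, 1267, 1182 and 1113 in S25 transgenic mice, 7359, 8800.5, 8044 and 11711 in A39 controls and 4619.6, 5811, 4075 and 3445 in A39 transgenic mice. It fell without overlap in both lines, and the difference was -1.38 (SE 0.32, 95% interval -2.03 to -0.74, adjusted p = 0.0418). Homer3, a scaffold that links metabotropic glutamate receptors to those receptors, had signals of 1558, 2008 and 1946 in S25 controls, 474, 431 and 623 in S25 transgenic mice, 1476, 1533, 1858 and 1583 in A39 controls and 799, 842, 659.7 and 952 in A39 transgenic mice. Without overlap in either line, it fell to 28.3% of control in S25 and 50.8% in A39, with a difference of -0.84 (SE 0.18, 95% interval -1.21 to -0.48, adjusted p = 0.02).

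The other 4 Purkinje markers had no called difference. Cacna1g, a T-type calcium channel, fell in S25 with -1.86 (SE 0.31, adjusted p = 8.87e-05) and had -0.24 (SE 0.27, adjusted p = 0.794) in A39, where its groups overlapped, and the difference was -1.62 (SE 0.42, 95% interval -2.46 to -0.77, adjusted p = 0.0931). Pcp2, a Purkinje cell regulator of G proteins, had effects of -1.50 (SE 0.22, adjusted p = 7.93e-06) and -0.77 (SE 0.19, adjusted p = 0.0235). Pvalb, the calcium buffer parvalbumin, which interneurons of the cerebellar cortex also express, had -0.88 (SE 0.14, adjusted p = 1.62e-05) and -0.46 (SE 0.12, adjusted p = 0.0306). Kcnma1 was the one with a difference near 0, as given above.

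**Figure D3:**
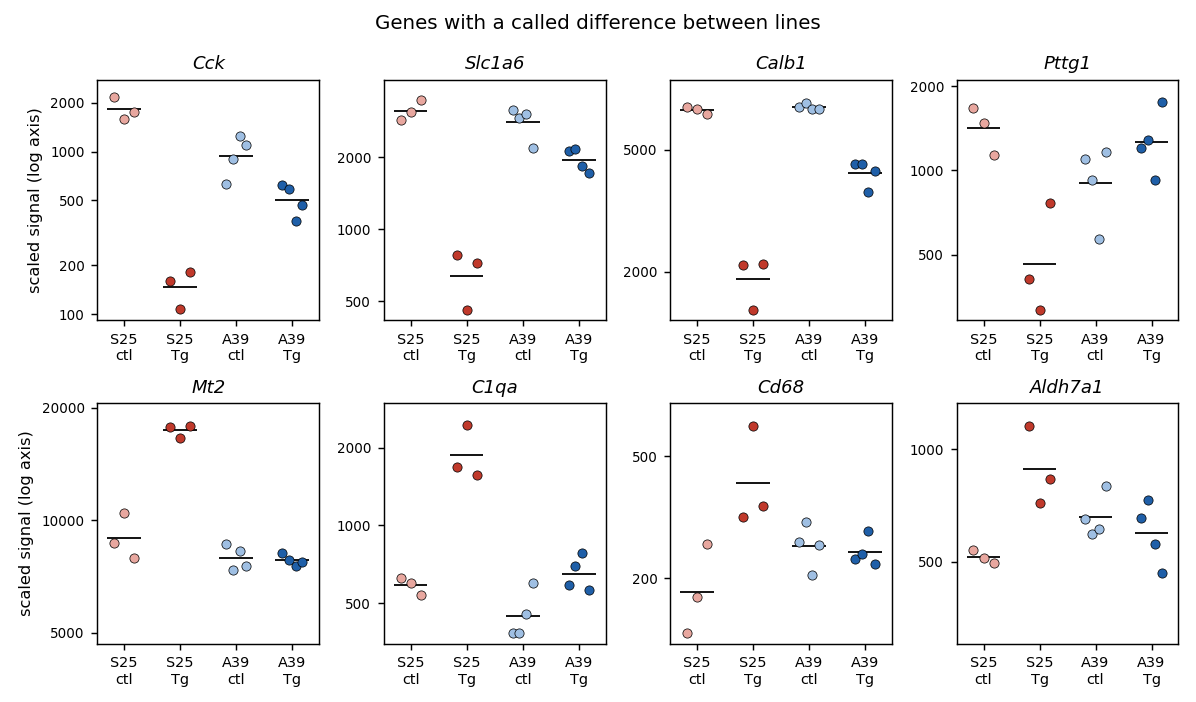
Scaled signal of each array (log axis) for 8 genes with a called difference between lines, with controls (ctl) and transgenic mice (Tg) of S25 and A39 and the geometric mean of each group as a line. Cck and Calb1 fell in both lines and further in S25, Slc1a6 and Pttg1 fell in S25 and were not called in A39, and Mt2, C1qa, Cd68 and Aldh7a1 rose in S25 while in A39 none of these 4 was called.

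Of 17 tested genes of calcium signalling, which include Cacna1g, 6 fell in S25 and 4 in A39, and 2 differed between lines. Among all autosomal genes, the shares called lower were 2.27% in S25, 1.11% in A39 and 0.201% in the difference. The S25 effect lay below the A39 effect for 13 of the 17 and above it for 4. The list median was -0.45 in S25, -0.22 in A39 and -0.33 for the difference. Atp2a3, the calcium pump SERCA3 of the endoplasmic reticulum, had signals of 2409.5, 2672 and 3153 in S25 controls, 577, 688 and 745 in S25 transgenic mice, 2977, 2992, 2833 and 1924 in A39 controls and 1677, 1955, 1489 and 1316 in A39 transgenic mice. The A39 groups overlapped only through control 4, and the difference was -1.28 (SE 0.21, 95% interval -1.71 to -0.85, adjusted p = 0.000437). A second Atp2a3 probe set had a difference of -1.56 (SE 0.38, 95% interval -2.34 to -0.79, adjusted p = 0.0668), which did not pass. Inpp5a, the phosphatase that ends the inositol trisphosphate signal, had signals of 4402, 4602 and 5006 in S25 controls, 1143, 1309 and 1379.8 in S25 transgenic mice, 5144, 5050.0, 5359 and 3993 in A39 controls and 2706, 3229, 2575 and 2530.3 in A39 transgenic mice, without overlap. Its difference was -1.04 (SE 0.18, 95% interval -1.4 to -0.68, adjusted p = 0.000968), and that of its second probe set, -0.77 (SE 0.22, 95% interval -1.22 to -0.32, adjusted p = 0.188), did not pass. Atp2a2, the pump SERCA2, fell in both lines, with -1.37 (SE 0.16, adjusted p = 9.22e-08) and -0.80 (SE 0.14, adjusted p = 0.000438) and a difference of -0.57 (SE 0.21, 95% interval -1.0 to -0.13, adjusted p = 0.498). Hpcal1, a calcium sensor, fell with -1.17 (SE 0.15, adjusted p = 3.40e-07) and -0.64 (SE 0.13, adjusted p = 0.00281). Ryr1, a calcium release channel of the endoplasmic reticulum, fell in S25 with -0.73 (SE 0.18, adjusted p = 0.0141) and had -0.18 (SE 0.16, adjusted p = 0.717) in A39.

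Pttg1 and Nptx1 lay outside these lists. Pttg1, securin, which holds sister chromatids together until anaphase, had effects of opposite sign. Its signals were 1671, 1482 and 1139 in S25 controls and 409.6, 319 and 767 in S25 transgenic mice, without overlap. In A39 they were 1095, 925, 571 and 1160.2 in controls and 1199, 1281, 928 and 1758 in transgenic mice, with overlap. The effect was -1.56 (SE 0.31, adjusted p = 0.001) in S25 and 0.47 (SE 0.27, adjusted p = 0.519) in A39, and the difference was -2.03 (SE 0.41, 95% interval -2.86 to -1.2, adjusted p = 0.011). Nptx1, a secreted pentraxin of synapses, fell in S25 from 4283, 4343 and 4664 to 1944, 1564 and 1349 and had overlapping A39 signals of 3099, 2578, 2768 and 1861 in controls and 2146, 1971, 2339 and 1639 in transgenic mice. Its difference was -1.12 (SE 0.26, 95% interval -1.64 to -0.61, adjusted p = 0.0405).

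In 4 genes the S25 effect was the higher, and 2 of them mark microglia and macrophages. C1qa, a chain of the complement component C1q, had signals of 628, 598 and 536 in S25 controls and 1683, 2461 and 1573 in S25 transgenic mice. In A39 they were 384, 382, 455 and 598 in controls and 585, 696, 783 and 562 in transgenic mice, where control 4 lay above 2 of the transgenic mice. The effect was 1.64 (SE 0.19, adjusted p = 4.27e-08) in S25, while 0.52 (SE 0.16, adjusted p = 0.11) in A39 did not pass, and the difference was 1.12 (SE 0.25, 95% interval 0.61 to 1.62, adjusted p = 0.0317). Cd68, a lysosomal glycoprotein of phagocytes, had signals of 132, 173 and 258 in S25 controls, 318, 625 and 344 in S25 transgenic mice, 262, 304, 206 and 256 in A39 controls and 232, 240.5, 285 and 222 in A39 transgenic mice. The A39 groups overlapped, and the difference was 1.15 (SE 0.26, 95% interval 0.64 to 1.67, adjusted p = 0.0317).

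Of 9 tested markers of microglia and macrophages, 6 rose in S25, none was called in A39, and 2 had a called difference. Over all autosomal genes, 1.54% were called higher in S25, 0.457% in A39 and 0.0548% in the difference. The list median was 1.1 in S25, 0.28 in A39 and 0.93 for the difference. Their summed signal was 8192 to 12115 in S25 transgenic mice, 4314 to 4689 in S25 controls, 4430 to 5079 in A39 transgenic mice and 3718 to 4196 in A39 controls. In A39, too, the transgenic sums lay above those of controls, by a smaller margin. The chain C1qc and the lysosomal protease Ctss also rose in S25, with 0.94 (SE 0.23, adjusted p = 0.0104) and 1.28 (SE 0.19, adjusted p = 9.10e-06). C1qb, another C1q chain, rose in S25 with 1.75 (SE 0.27, adjusted p = 1.72e-05) and had a difference of 1.21 (SE 0.36, 95% interval 0.49 to 1.93, adjusted p = 0.201). Tyrobp, an adaptor of microglial receptors, rose in S25 with 1.44 (SE 0.29, adjusted p = 0.000945). Its A39 signals of 148, 175, 139.8 and 149.6 in controls and 221, 222, 244 and 221 in transgenic mice did not overlap, though the effect of 0.52 (SE 0.25, adjusted p = 0.397) did not pass, and the difference was 0.93 (SE 0.38, 95% interval 0.16 to 1.69, adjusted p = 0.582). Laptm5, a lysosomal protein of immune cells, rose in S25 with 1.86 (SE 0.44, adjusted p = 0.00737) on one probe set, while its second, at 0.45 (SE 0.19, adjusted p = 0.212), did not pass. Csf1r and Cx3cr1, receptors that mark microglia at rest, were not called in S25, with 0.49 and 0.08. Blood cell markers were not called in either line (3 tested).

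Mt2, a metal-binding metallothionein, rose in S25 to 194% of control. Its signals were 8712, 10450.3 and 7906 in S25 controls and 17755, 16585 and 17872 in S25 transgenic mice, without overlap. In A39 they were 8650.4, 7378, 8284 and 7524 in controls and 8178, 7827, 7545 and 7737 in transgenic mice, with overlap. The difference was 0.98 (SE 0.20, 95% interval 0.56 to 1.39, adjusted p = 0.016). Aldh7a1, an aldehyde dehydrogenase of lysine breakdown, rose in S25 from 538, 512 and 496 to 1153, 717 and 834 and overlapped in A39, where signals were 649.7, 594, 612 and 796 in controls and 657, 733, 558 and 468 in transgenic mice. The difference was 0.9 (SE 0.21, 95% interval 0.48 to 1.32, adjusted p = 0.0425), and its second probe set, at 0.47 (SE 0.24, 95% interval -0.02 to 0.97, adjusted p = 0.783), did not pass.

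Few astrocyte genes passed the test. Of 11 tested markers of Bergmann glia and astrocytes, 1 rose in S25 and 1 fell in A39, with list medians of 0.13 and -0.12. Across all autosomal genes, 1.54% were called higher in S25 and 1.11% lower in A39. Gfap, the astrocyte filament that rises in reactive glia, had signals of 672, 938 and 837 in S25 controls and 1694, 1958 and 1925 in S25 transgenic mice, 781, 687, 719 and 589 in A39 controls and 982, 945, 794 and 770.1 in A39 transgenic mice, with overlap only in A39. It rose in S25 with 1.18 (SE 0.17, adjusted p = 3.26e-06), and its difference of 0.86 (SE 0.22, 95% interval 0.41 to 1.30, adjusted p = 0.0876) did not pass. Aldoc, an aldolase of astrocytes and of a subset of Purkinje cells, fell in A39 with -0.66 (SE 0.16, adjusted p = 0.0188) and had -0.59 (SE 0.18, adjusted p = 0.0643) in S25.

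Of the 15 differences, 7 were called with each of the 14 arrays left out in turn: Cck, Slc1a6, Ppp1r17, Atp2a3, Calb1, Inpp5a and Rgs8. Over these fits their adjusted p reached at most 0.00968, for Inpp5a. The Mt2 call was lost without S25 control 1 and without S25 control 3 (adjusted p up to 0.0889), and the Pttg1 call without S25 control 1 and without S25 transgenic 2 (up to 0.0874). Homer3 was lost without any of 4 arrays (up to 0.131), C1qa of 8 (up to 0.2), Cd68 of 9 (up to 0.219), and Car8, Nptx1 and Aldh7a1 of 10 each (up to 0.173, 0.136 and 0.204). No difference turned its direction. With sex from the labels as a term, 14 of the 15 were called and Car8 was not (-1.36, adjusted p = 0.0617). In males alone, 3 transgenic mice and 1 control in S25 and 2 and 1 in A39, each effect was set by a single control whose spread was assumed to be that of the other groups, so this fit bears little on stability. None of the 15 was called there and the signs were those of the full fit, with Calb1 at -1.05 (adjusted p = 0.165) and Cck at -1.75 (adjusted p = 0.506).

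**Figure D4:**
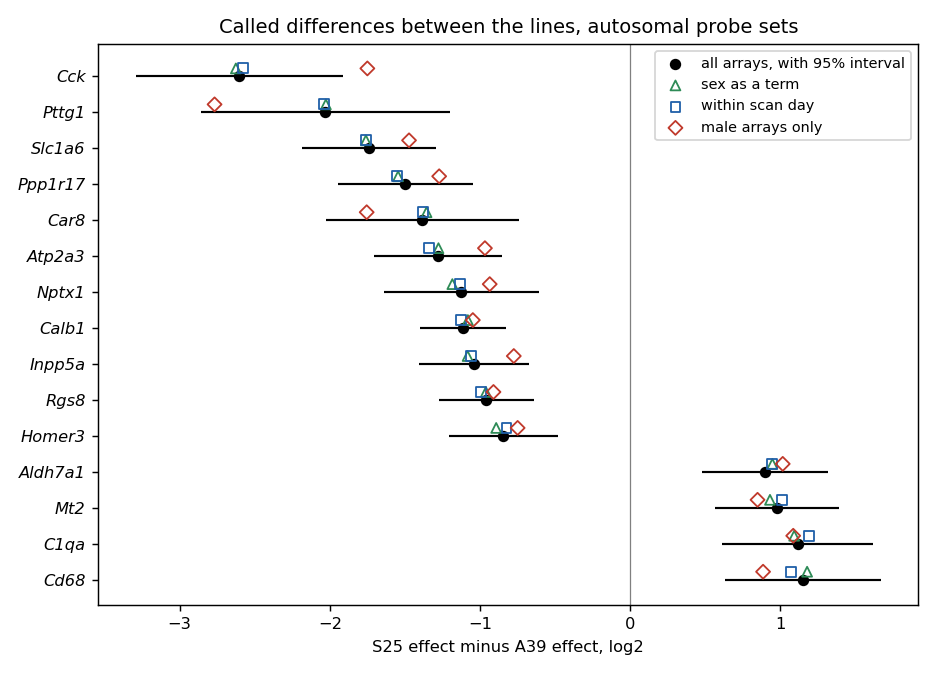
S25 effect minus A39 effect (log2, horizontal axis) for the 15 probe sets with a called difference. The 95% interval of the fit to all arrays is in black. Values are also shown with sex as a term (triangle), with S25 and A39 arrays each from 1 scan day (square) and with male arrays only (diamond). In the fit shown by squares, S25 and A39 still came from different scan days. All values lie on the same side of 0 for each gene.

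Most calls made in S25 alone had no called difference. Of the 174 probe sets called in S25 and not in A39, the difference was called for 7 and not for 167. The endoplasmic reticulum chaperones gave an example: of 14 tested genes of endoplasmic reticulum stress, 3 fell in S25 and none was called in A39 or in the difference, with medians of -0.34 and -0.23. Among all autosomal genes, 2.27% were called lower in S25. Hspa5, the chaperone BiP, had signals of 5095, 3639.6 and 3922 in S25 controls and 2291, 1384 and 2437 in S25 transgenic mice, 2648, 2616, 3672 and 3141 in A39 controls and 2153, 1998, 1931 and 1682 in A39 transgenic mice, without overlap in either line. Its effect was -1.07 (SE 0.21, adjusted p = 0.00068) in S25, that of -0.62 (SE 0.18, adjusted p = 0.0667) in A39 did not pass, and the difference was -0.45 (SE 0.27, 95% interval -1.0 to 0.11, adjusted p = 0.827). Pdia6, a disulfide isomerase, fell in S25 with -0.97 (SE 0.21, adjusted p = 0.0022) on 1 of its 3 probe sets, and Sel1l, part of the machinery that clears misfolded proteins, with -0.53 (SE 0.15, adjusted p = 0.0435) on 1 of its 2 probe sets.

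Further S25 calls came from several lists. Snap25, a core protein of transmitter release, fell in S25 to 64.4% of control (adjusted p = 0.0164) and was at 92.1% in A39, the only call in S25 among 12 tested genes of synaptic vesicles and release, whose median was -0.09. Bdnf, a neuronal growth factor, fell to 60.8% in S25 (adjusted p = 0.0034) and was at 81.3% in A39. Plekho1, a pleckstrin homology protein, fell in S25 with -2.38 (SE 0.59, adjusted p = 0.0118), but in A39 its signals of 739, 696, 734 and 102 in controls and 123, 318, 398 and 113 in transgenic mice overlapped through control 4 alone. Fmod, an extracellular matrix proteoglycan, rose in S25 with 1.88 (SE 0.39, adjusted p = 0.00187) and had 1.03 (SE 0.34, adjusted p = 0.151) in A39 without overlap in either line. Bag3, a co-chaperone, fell in S25 on 1 of its 2 probe sets with -1.02 (SE 0.24, adjusted p = 0.00697), the only call among 16 heat shock proteins and chaperones. Ddit4, a stress-induced inhibitor of mTOR, rose in S25 with 0.60 (SE 0.18, adjusted p = 0.0478), the only call among 9 p53 targets. Across all autosomal genes, 2.27% were called lower and 1.54% higher in S25. The calls of Ddit4 and Sel1l were lost without any 1 of 8 and 7 arrays.

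Among granule cell markers, of which 12 were tested, 2 fell in S25 and 1 rose in A39, and none had a called difference. Over all autosomal genes, 2.27% were called lower in S25 and 0.457% higher in A39. The list medians were -0.17 and -0.06, and the summed signal was 48387 to 51714 in S25 transgenic mice and 55556 to 57608 in S25 controls. Cbln1, a synapse organizer that granule cells release onto Purkinje cells, fell in S25 with -0.54 (SE 0.12, adjusted p = 0.00477) and had -0.27 (SE 0.11, adjusted p = 0.276) in A39. Tiam1, an activator of Rac, fell in S25 with -1.02 (SE 0.22, adjusted p = 0.00325) on 1 of its 2 probe sets. Calb2, the calcium buffer calretinin, rose in A39 from 5862, 5672, 5358 and 4285 in controls to 9146, 8074, 7848 and 8116 in transgenic mice, an effect of 0.65 (SE 0.14, adjusted p = 0.00569). In S25 its groups overlapped and the effect was 0.10 (SE 0.16, adjusted p = 0.862), with a difference of -0.56 (SE 0.21, 95% interval -0.99 to -0.12, adjusted p = 0.517). Gabra6, the receptor subunit that defines granule cells, had effects of -0.08 and -0.12 and was not called.

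No probe set had a called difference with the larger effect in A39. Of the 35 probe sets called in A39 and not in S25, 31 had the same sign in S25. The 4 exceptions were the repressor Bcl6, the kinase Prkcz, and the myelin proteins Cldn11 and Mal. Cldn11, the claudin of myelin sheaths, had signals of 684, 629, 611 and 811 in A39 controls and 434, 451, 464 and 286 in A39 transgenic mice, without overlap, and 332, 765 and 487 in S25 controls and 627, 756 and 713 in S25 transgenic mice, with overlap. It fell in A39 with -0.73 (SE 0.19, adjusted p = 0.029), had 0.46 (SE 0.22, adjusted p = 0.281) in S25, and its difference of 1.2 (SE 0.28, 95% interval 0.62 to 1.77, adjusted p = 0.053) just missed the threshold. Mal, a proteolipid of myelin, had signals of 846, 769.7, 849 and 884 in A39 controls and 499.7, 626, 476 and 611 in A39 transgenic mice, and its difference was 0.79 (SE 0.20, 95% interval 0.40 to 1.19, adjusted p = 0.0704). Car2, carbonic anhydrase 2 of oligodendrocytes, also fell in A39 with -0.53 (SE 0.11, adjusted p = 0.00298), and its S25 effect was -0.41 (SE 0.12, adjusted p = 0.0513).

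Over the 10 tested markers of oligodendrocytes and myelin, 3 fell in A39 and none was called in S25 or in the difference. Across all autosomal genes, 1.11% were called lower in A39. The median was -0.35 in A39 and 0.06 in S25, and the S25 effect was the higher for 9 of the 10. Their summed signal was 16585 to 20584 in A39 transgenic mice and 23588 to 24082 in A39 controls, while the S25 groups overlapped. Mbp and Mag, structural proteins of myelin, were not called, with A39 effects of -0.29 and -0.04. When only brighter probe sets were tested (mean signal at or above the 60th percentile), the differences of Cldn11 and Mal passed, with adjusted p of 0.0288 and 0.0406.

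Further A39 calls had the same sign in S25. Acads, a mitochondrial dehydrogenase of short fatty acids, rose in A39 with 1.22 (SE 0.28, adjusted p = 0.0113) and had 0.88 (SE 0.32, adjusted p = 0.131) in S25, although its second probe set was called in neither line. Astn1, a protein of granule cell migration along glia, rose with 1.01 (SE 0.23, adjusted p = 0.00933) and had 0.76 (SE 0.26, adjusted p = 0.101). Sin3b, a corepressor scaffold, rose with 0.9 (SE 0.19, adjusted p = 0.0062) and had 0.55 (SE 0.22, adjusted p = 0.197). Msmo1 of cholesterol synthesis fell with -1.0 (SE 0.26, adjusted p = 0.0389), a value that rests in part on 1 transgenic array at 36.0 against 141 to 169 in the other 3. This call passed in 8 of the 14 fits that left out 1 array and in 3 of 13 other alternatives. Idi1, another enzyme of that pathway, fell in both lines with -0.74 (SE 0.15, adjusted p = 0.00109) and -0.48 (SE 0.13, adjusted p = 0.0407). Its A39 call passed in 8 of the 14 fits that left out 1 array and in 4 of 14 other alternatives. Of 11 tested genes of the pathway, 1 fell in S25 and 2 in A39, where 2.27% and 1.11% of all autosomal genes were called lower.

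**Figure D5:**
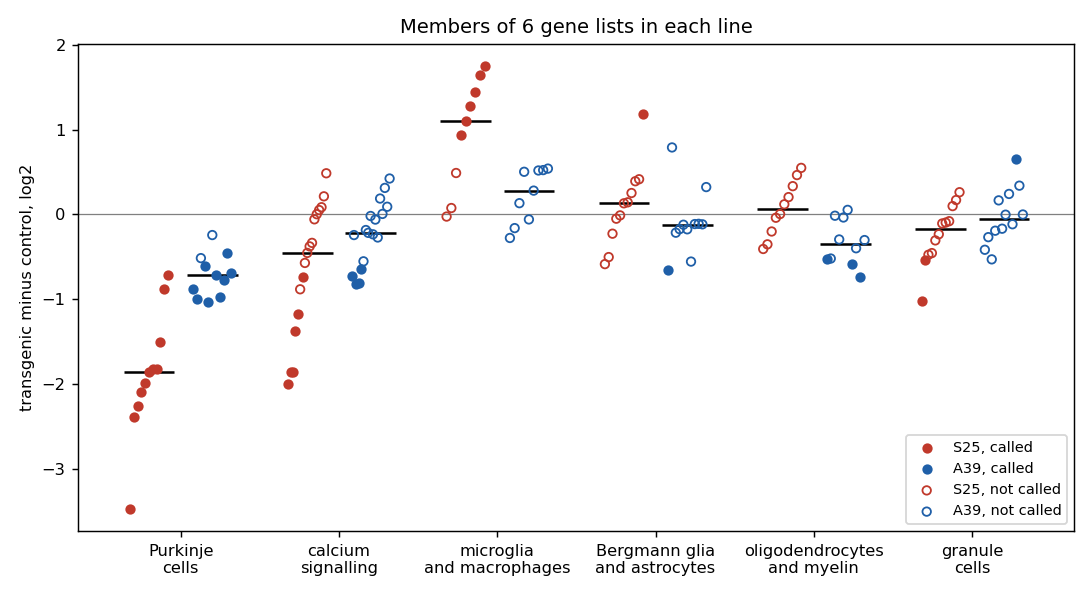
Effect of the transgene (log2, vertical axis) on each tested member of 6 gene lists in S25 (red) and A39 (blue), with filled points for called members and the list median as a black line. Purkinje markers lie lower in S25 than in A39, microglial markers lie higher in S25, and the 3 called myelin markers fell in A39.

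Several lists held no call in either line. None of 17 tested genes of nuclear import and export was called in S25, in A39 or in the difference, with medians of 0.03 and 0.02. Likewise uncalled in either line and in the difference were 29 proteasome subunits, 42 subunits of the mitochondrial respiratory chain and 13 ribosomal proteins. So were markers of vessels (4), meninges and fibroblasts (8), and neighbouring brainstem and midbrain (3). Ribosomal medians were 0.19 in S25 and 0.29 in A39, with 12 of the 13 higher in both lines. The summed ribosomal signal was 72099 to 83015 in A39 transgenic mice and 51844 to 68621.5 in A39 controls, and overlapped in S25. The meningeal sum was 22939.6 to 26028.5 in S25 transgenic mice and 17669 to 20976 in S25 controls, and overlapped in A39. Choroid plexus markers, a sign of tissue carried along in dissection, were not called but varied between arrays: the summed signal of the 5 tested ran from 1629 to 5354 in S25 transgenic mice and from 1308 to 2269 in S25 controls, with list medians of 0.99 in S25 and 0.96 in A39. In A39 the sum ran from 1370.3 to 6203 in transgenic mice and from 1071 to 4906 in controls. Their part in the results above was not tested. Of 12 tested genes known to fall in the striatum in Huntington's disease, 3 fell in S25 (Bdnf, Ryr1 and Penk) and 1 in A39 (Penk), where 2.27% and 1.11% of all autosomal genes were called lower. The S25 call of Penk was lost without any 1 of 8 arrays.

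Htt itself was read by 2 probe sets, and neither was called. One had signals of 2168, 1978 and 1970.3 in S25 controls and 1872, 2105 and 2051 in S25 transgenic mice, and effects of -0.02 (SE 0.13, adjusted p = 0.974) in S25 and -0.09 (SE 0.11, adjusted p = 0.806) in A39. The other had effects of -0.26 (SE 0.16, adjusted p = 0.466) and 0.02 (SE 0.14, adjusted p = 0.979). Where these probes lie relative to exon 1 was not given in the sources used here, so they do not check the transgene.

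Without A39 control 2, which also leaves all A39 arrays on 1 scan day, 230 probe sets were called in S25, 88 in A39, 49 in both and 12 in the difference. Without A39 control 4 these counts were 262, 73, 60 and 12, and without A39 transgenic 4 they were 241, 74, 48 and 14. Without A39 transgenic 3 the A39 calls fell to 57 and the shared calls to 41. Without S25 transgenic 1, 26 differences were called. With the 14 arrays fitted alone, 139 were called in S25, 44 in A39, 34 in both and 5 in the difference (Cck, Slc1a6, Ppp1r17, Calb1 and Mt2). With sex as a term, 196 were called in S25, 91 in A39 and 54 in both.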

How the data were processed

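RNA from whole cerebellum, 1 mouse per array, had been hybridised to 48 Affymetrix MG-U74Av2 arrays. The deposited values were signal intensities on a linear scale, computed and scaled by the authors with MAS5 per the submitters' processing notes; the version was not given in the sources used here. Each array's trimmed mean (2% trimmed) was 500.2 to 500.3. The authors' scan records were used only for scan day and chip lot.

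Values were rescaled to one trimmed mean and taken as log2(signal + 18.7), where 18.7 was the 10th percentile, so differences of dim probe sets are understated. The 66 control probe sets and those with a mean signal below the 40th percentile were left out, which left 7453. A model with 14 group means was fitted to all 48 arrays with limma 3.58.1 in R 4.3.3 (34 residual degrees of freedom), so all groups shared one estimate of the spread. The contrasts were each line's transgenic minus control effect, and the S25 effect minus the A39 effect. P-values came from limma's moderated test and were adjusted by Benjamini and Hochberg over all 7453 probe sets within each contrast. Only autosomal probe sets are reported, and 12488 probe sets were named through the platform's gene table and a RefSeq gene table (10855 with 1 symbol, 396 with several, 1237 with none). Gene lists take 1 probe set per gene. The fit was tested on simulated data.

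The comparison, the members and the gene lists were chosen with earlier results of these data known. Genes named were up to 10 shared rises and 10 shared falls, up to 10 called differences in each direction by size, up to 8 called rises and 8 called falls in each line with no overlap between groups, up to 4 called members of each list, and Htt. List members named as not called, and counts of members, were added for context. Alternatives were the 14 arrays alone, sex, scan day, chip lot or replicate number as a term, and males only. Another took S25 and A39 arrays each from 1 scan day, which was not the same day for both lines. Others were quantile normalization, other pseudocounts and filters, a trended robust variance, and each array left out. Sex together with 1 scan day per line was chosen after seeing the data. The number of arrays limits the precision.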

Additional observations from a re-analysis of the deposited data

Results flagged for a closer look

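The effect of the transgene differed between S25 and A39, by the test of the difference itself (limma, all arrays), for 15 autosomal probe sets. The S25 effect was the lower for Cck (-2.60 on the log2 scale), Pttg1 (-2.03), Slc1a6 (-1.74), Ppp1r17 (-1.50), Car8 (-1.38), Atp2a3 (-1.28), Nptx1 (-1.12), Calb1 (-1.11), Inpp5a (-1.04), Rgs8 (-0.96) and Homer3 (-0.84). It was the higher for Aldh7a1 (0.90), Mt2 (0.98), C1qa (1.12) and Cd68 (1.15).

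Among the named genes and Htt, 15 of 150 groups of 4 A39 arrays held 1 array far from the other 3. Chance alone marks about 1 group in 20 where groups are independent. These groups were of chosen genes read on the same arrays, so the count cannot be read as an excess. The measure, taken on log2(signal + 18.7), is the gap to the nearest array divided by the range of the group. Control 4 was the array apart for Atp2a3 (0.876, signal 1924 against 2833 to 2992), Laptm5 (0.924, 131 against 262 to 277), Pdia6 (0.910, 754 against 491 to 510.1), Plekho1 (0.969, 102 against 697 to 739) and Ppp1r17 (0.834, 2206 against 3247 to 3507). Transgenic 4 was apart for Acads (0.859), Cldn11 (0.863), Dap (0.870), Laptm5 (0.840) and Msmo1 (0.866). Transgenic 3 was apart for Bdnf (0.902), Slc39a6 (0.852) and Tyrobp (0.926), transgenic 1 for Col18a1 (0.891), and control 2 for Htt (0.987).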

How the results depend on the processing

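No probe set was called in opposite directions in the 2 lines under any alternative, and no called effect or difference of a named gene reversed its direction. Of the named calls, 43 of 62 in S25, 23 of 45 in A39 and 7 of 15 differences passed with each array left out in turn, and 26, 5 and 0 passed under every alternative. With the 14 arrays fitted alone, 139 probe sets were called in S25, 44 in A39, 34 in both and 5 in the difference, all 5 larger in S25, where fewer arrays share the spread. With males only, where each control arm is 1 mouse, 105 were called in S25, 12 in A39, 10 in both and 1 in the difference, which was Cradd and larger in S25. At the 60th percentile filter, where fewer probe sets were tested, 27 differences were called, 25 larger in S25 and 2 in A39 (Cldn11 and Mal). The count larger in A39 was 1 with no filter (Dmgdh) and 1 with a trended robust variance (Cldn11). Leaving out each array gave 162 to 262 calls in S25, 57 to 105 in A39, 41 to 62 in both and 10 to 26 in the difference, with 10 to 24 larger in S25 and 0 to 2 larger in A39. The fewest A39 and shared calls came without A39 transgenic 3 and the most differences without S25 transgenic 1, which also gave 2 larger in A39 (Cldn11 and Gars), as did leaving out S25 control 2 (Prkcz and Mal). The causes of the other shifts were not tested. With the replicate number as a block, 212 were called in S25, 77 in A39, 49 in both and 15 in the difference, 12 of them among the 15 reported (not Homer3, C1qa and Aldh7a1). Samples of 1 number deviated together by correlations of -0.01 to 0.14 in S25 and -0.01 to 0.15 in A39. Not every pair deviated together, since 3 of the 7 lay at 0.01 or below, so the numbers were not taken to pair the samples.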
